A study of Homo sapiens with 9 samples.

Results

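The genes described here are 10 genes by which interstitial cells of Cajal and gastrointestinal stromal tumor (GIST) are recognized, followed through RNA sequencing of the human GIST line T1 (GIST-T1). They were the rows of the gene count table with the symbols KIT, PDGFRA, ETV1, ANO1, PRKCQ, FOXF1, HAND1, HIC1, OSR1 and CD34, which is 10 of 61209 rows. All 10 passed the filter on low counts, which left 16976 genes to test. The study compared 3 groups of cells with 3 libraries each: cells with a non-target siRNA (siNC, libraries S1, S2 and S3), cells with an siRNA against ESRRA, the gene of estrogen-related receptor alpha (siERRα, S4, S5 and S6), and cells with the non-target siRNA and 50 nM imatinib, an inhibitor of the KIT and PDGFRA kinases (imatinib, S16, S17 and S18). All cells were harvested 48 h after transfection. All 3 groups carry the same KIT mutation, labelled KIT exon 11 del560-79, and the line is described as imatinib sensitive. The libraries come from 1 cell line and 1 genotype, and the counts per gene do not separate the deleted KIT allele from any other.

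Interstitial cells of Cajal are the pacemaker cells of the gut wall, and GIST is thought to arise from them or their precursors. The receptor tyrosine kinase KIT, switched on by its ligand stem cell factor, is needed for these cells to form, and most GIST carry an activating mutation in KIT or, less often, in its neighbour PDGFRA. The ETS factor ETV1 acts beside KIT as a lineage factor, and KIT signalling through the MAP kinase cascade protects the ETV1 protein from breakdown. ANO1 (also called DOG1), PRKCQ and CD34 serve pathologists as markers of the tumor, and the transcription factors FOXF1, HAND1, HIC1 and OSR1 belong to gut and embryonic mesenchyme.

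After ERRα knockdown 5 of the 10 identity genes rose (PDGFRA, ETV1, PRKCQ, FOXF1 and HIC1) and none fell, in a comparison where 23.9% of all genes tested passed and 11.4% passed as higher. With imatinib 6 rose (KIT, ETV1, ANO1, PRKCQ, HAND1 and OSR1) and 2 fell (FOXF1 and CD34), where 41.7% of all genes passed, 21.4% as higher and 20.3% as lower. The calls are those of edgeR's quasi-likelihood test with a Benjamini-Hochberg adjusted p under 0.05, taken across every gene tested. The 10 genes had a median log2 fold change of 0.21 after knockdown and 0.20 with imatinib, against 0.0085 and 0.0023 for all tested genes. Every change of an identity gene was under 2-fold. Both comparisons share the siNC libraries, and the direct contrast of siERRα with imatinib tests whether the responses differ. It called 9 of the 10 genes, 4 higher and 5 lower in siERRα, where 52.2% of all genes passed, 25.6% as higher and 26.6% as lower.

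Library totals ran from 37527236 to 49363002 counts. Values are TMM-normalized counts scaled to library size (CPM) unless stated, each SD being taken across the 3 libraries of its group. ESRRA itself stood at 40.7 to 44.7 CPM in siNC, 0.757 to 1.40 CPM in siERRα and 30.4 to 35.6 CPM with imatinib. Nothing in the labels ties the libraries of a group to separate cultures, so the p-values speak only of the spread among the libraries at hand, which may be technical. In bulk RNA, fewer cells of a kind and less RNA per cell cannot be told apart.

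**Figure D1:**
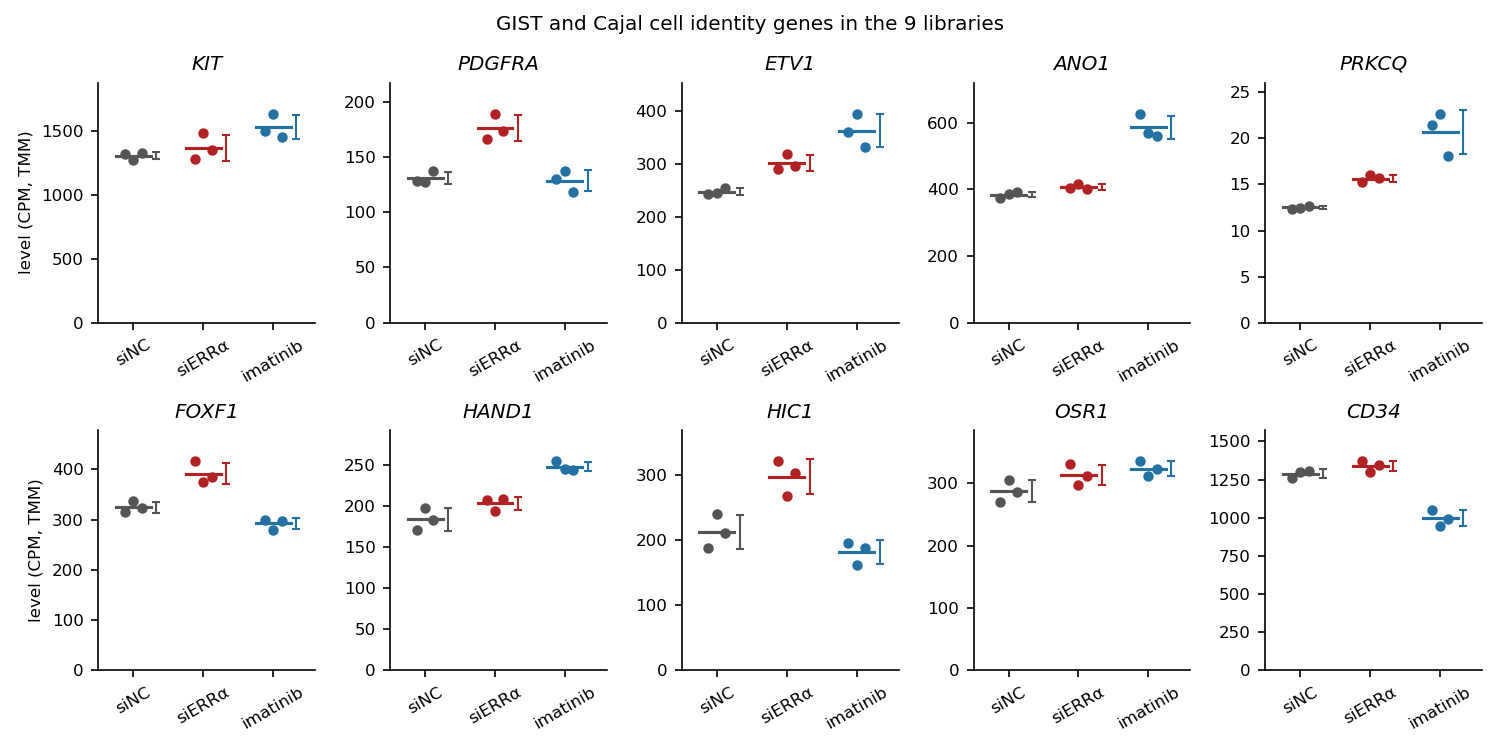
Level of each identity gene in CPM (linear axes from 0) in the 3 libraries of siNC, siERRα and imatinib, with the group mean as a line and the SD as the bar beside it. The imatinib libraries of PDGFRA and HIC1 overlap the siNC range, and those of the other identity genes lie outside it. The share of all tested genes that lie outside it was not taken.

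KIT (chromosome 4, 54657267 to 54740783, plus strand, GRCh38), the receptor that carries the mutation of these cells, rose with imatinib. It stood at 1314, 1272 and 1328 CPM in S1, S2 and S3. The knockdown libraries gave 1275, 1477 and 1346 CPM and the imatinib libraries 1496, 1630.2 and 1452 CPM. All 3 imatinib libraries lay above all 3 controls, whereas the knockdown libraries overlapped them. The rise was 1.17-fold (log2 fold change 0.23, SE 0.0603, edgeR adjusted p = 0.00524). After knockdown its log2 fold change was 0.067 (95% interval −0.06 to 0.19, edgeR adjusted p = 0.476). The contrast of siERRα with imatinib gave −0.16 (edgeR adjusted p = 0.0326) although the libraries of both groups overlapped, and the call was lost without S4 (adjusted p = 0.18), without S6 (0.067) or without S17 (0.121). KIT alone made up 0.128% to 0.136% of all counts in siNC and 0.142% to 0.160% with imatinib.

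PDGFRA (chromosome 4, 54229280 to 54298245, plus strand), the sister receptor on the same arm of chromosome 4, rose after knockdown. The controls stood at 128, 127 and 137 CPM and the knockdown libraries at 166, 189 and 174 CPM. All knockdown libraries were above all controls, a 1.35-fold rise (log2 fold change 0.43, SE 0.0651, edgeR adjusted p = 7.24e-05). The imatinib libraries, at 129.9, 138 and 118 CPM, overlapped the controls, with a log2 fold change of −0.026 (95% interval −0.16 to 0.11, edgeR adjusted p = 0.787). The sign of that difference turned without S3 (0.011) or without S18 (0.028). PDGFRA was higher in siERRα than with imatinib by 0.46 on the log2 scale (SE 0.0653, edgeR adjusted p = 9.29e-06). Part of its exons, 1533 bases, is shared with a second gene model of the same strand (ENSG00000282278). The bearing of this overlap on the PDGFRA counts was not tested.

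ETV1 (chromosome 7, 13891229 to 13991425, minus strand), the ETS factor that works beside KIT, was raised by both treatments. It stood at 243, 244 and 255 CPM in siNC, at 289.7, 319.5 and 296 CPM in siERRα and at 360.2, 395 and 332 CPM with imatinib. The 3 groups did not overlap and followed each other in that order. ETV1 rose 1.22-fold after knockdown (log2 fold change 0.29, SE 0.0624, edgeR adjusted p = 0.00226) and 1.46-fold with imatinib (0.55, SE 0.0626, adjusted p = 1e-06). The imatinib level was the higher, with a contrast of −0.26 (edgeR adjusted p = 0.00143).

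ANO1 (chromosome 11, 69985907 to 70189530, plus strand) encodes the calcium-activated chloride channel that carries the pacemaker current of Cajal cells and is the antigen of the DOG1 stain. Its levels were 375, 385 and 392 CPM in siNC, 402, 415 and 401 CPM in siERRα and 626, 569.7 and 560.4 CPM with imatinib. ANO1 rose 1.52-fold with imatinib (log2 fold change 0.61, SE 0.0540, edgeR adjusted p = 4.29e-08). The knockdown libraries lay just above the controls without overlap, yet the difference of 0.081 did not pass (95% interval −0.032 to 0.19, edgeR adjusted p = 0.31). In the direct contrast ANO1 was lower in siERRα (log2 difference −0.53, edgeR adjusted p = 1.35e-07). A reverse-strand transcript that shares exon bases with it, ANO1-AS1, had no counts in any library. A gene model of the same strand (ENSG00000255191, a long noncoding RNA) shares 260 exon bases with ANO1. The bearing of that overlap on the ANO1 counts was not tested.

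PRKCQ (chromosome 10, 6427143 to 6580301, minus strand), protein kinase C theta, had the lowest level per exon length of the 10 genes and the largest rise with imatinib. It stood at 12.4, 12.5 and 12.7 CPM in siNC, 15.2, 15.99 and 15.7 CPM in siERRα and 21.4, 22.7 and 18.04 CPM with imatinib. As with ETV1, the groups did not overlap and siERRα lay in between. PRKCQ rose 1.25-fold after knockdown (log2 fold change 0.32, SE 0.0860, edgeR adjusted p = 0.00963) and 1.66-fold with imatinib (0.73, SE 0.0857, adjusted p = 1.54e-06). The contrast between the treatments was −0.41 (edgeR adjusted p = 0.00048).

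The promoter window of PRKCQ is the only one of the identity genes to hold a searched motif, and is shown for that reason. RefSeq windows of GRCh38.p14, from 250 bases before to 50 bases after each start site, were at hand for 7 of the 10 genes (KIT, PDGFRA, ETV1, ANO1, PRKCQ, HAND1 and CD34) and were searched on both strands for TNAAGGTCA, the extended half-site that ERR receptors bind, for the ETS site CCGGAAGT and for the forkhead site TGTTTAC. The PRKCQ window, 6580597 to 6580896, belongs to a RefSeq start site that lies before the GENCODE start of the gene given above (6580301, minus strand). It held 1 forkhead match, 105 bases before that RefSeq start site. The stretch chr10:6580735-6580761 on the minus strand is written below 5′ to 3′ with the match in capitals.
PRKCQ: aaaggaacaaTGTTTACaagccctttc
Of all 34943 promoter windows, 0.956% held the ERR half-site, 4.11% the ETS site and 3.42% the forkhead site. None of these letters occurred in the windows of the other 6 genes, which says nothing of distant enhancers. A match describes letters only.

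CD34 (chromosome 1, 207880972 to 207911402, minus strand), a surface sialomucin of stem cells and vessels that many GIST display, gave 1258, 1301 and 1308 CPM in siNC and 1369, 1301 and 1347 CPM in siERRα. Those groups overlapped, with a log2 fold change of 0.055 (95% interval −0.055 to 0.17, edgeR adjusted p = 0.499). With imatinib it stood at 1049.7, 947 and 989.9 CPM, every library below every control. CD34 fell to 0.772 of the control level (log2 fold change −0.37, SE 0.0525, edgeR adjusted p = 1.29e-05). It was thus the marker that fell while KIT, ANO1 and PRKCQ rose, and its contrast between siERRα and imatinib was 0.43 (edgeR adjusted p = 1.38e-06).

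**Figure D2:**
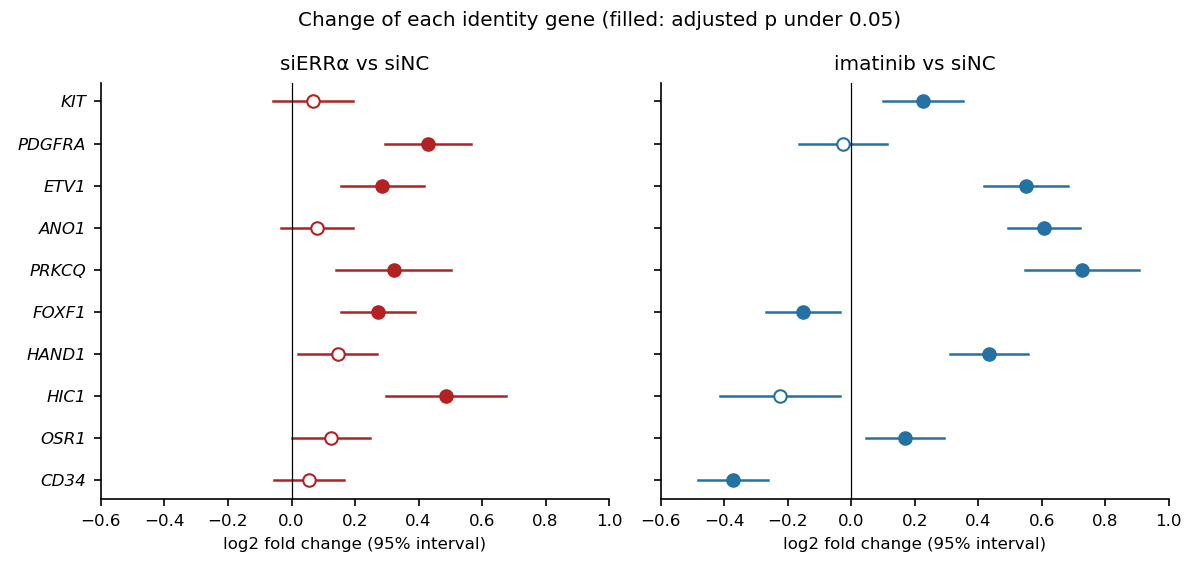
log2 fold change of each identity gene against siNC with its 95% interval, for siERRα on the left and imatinib on the right (filled points pass an adjusted p under 0.05). The knockdown points all lie above 0, while the imatinib points run from −0.37 for CD34 to 0.73 for PRKCQ.

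Of the mesenchymal transcription factors FOXF1 and HIC1 rose after knockdown, while with imatinib FOXF1 fell and HIC1 did not pass. FOXF1 (chromosome 16, 86510527 to 86515422, plus strand), the forkhead factor of the gut wall mesenchyme, stood at 314, 336 and 323 CPM in siNC, 416, 374 and 385 CPM in siERRα and 299.7, 280.0 and 297 CPM with imatinib. The groups did not overlap. FOXF1 rose 1.21-fold after knockdown (log2 fold change 0.27, SE 0.0555, edgeR adjusted p = 0.00135). With imatinib it fell to 0.901 of the control level (log2 fold change −0.15, SE 0.0557, edgeR adjusted p = 0.0361), a call near its threshold that was lost without S2 (adjusted p = 0.121), S3 (0.091), S17 (0.132) or S18 (0.0585). The difference between the treatments was 0.42 (edgeR adjusted p = 3.42e-06).

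HIC1 (chromosome 17, 2054154 to 2063241, plus strand), a zinc finger repressor of mesenchymal progenitors, had the largest rise of the 10 genes after knockdown. It gave 187, 239 and 211 CPM in siNC, 321, 268 and 303 CPM in siERRα and 196, 161 and 188 CPM with imatinib. All knockdown libraries were above the controls, and the imatinib libraries overlapped the controls. HIC1 rose 1.40-fold after knockdown (log2 fold change 0.49, SE 0.0887, edgeR adjusted p = 0.000661). Its difference with imatinib was −0.22 (95% interval −0.41 to −0.036, edgeR adjusted p = 0.0531), which passed without S1 (−0.31, adjusted p = 0.00927), without S4 (adjusted p = 0.049) or without S16 (0.0353), and, with transcript GC content corrected for, at −0.37 (adjusted p = 1.81e-06). Between siERRα and imatinib HIC1 differed by 0.71 (edgeR adjusted p = 3.78e-06), the widest difference of the 10 genes. HIC1 shares 2419 exon bases with SMG6 on the other strand, and since the strand setting of the counting is not given in the sources used here, reads of the pair may not be separated.

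HAND1 and OSR1 rose with imatinib and did not pass after knockdown. HAND1 (chromosome 5, 154474972 to 154478227, minus strand), a basic helix-loop-helix factor of heart and gut mesenchyme, stood at 170.4, 198 and 182 CPM in siNC, 207, 193 and 208 CPM in siERRα and 254, 245 and 244 CPM with imatinib. Every imatinib library was above every other library. HAND1 rose 1.35-fold with imatinib (log2 fold change 0.43, SE 0.0592, edgeR adjusted p = 8.81e-06). After knockdown its difference was 0.15 (95% interval 0.021 to 0.27, edgeR adjusted p = 0.0849), with overlapping libraries, and it passed without S2 (adjusted p = 0.0321), without S5 (0.0304) or under the GC correction (0.0141). The contrast between the treatments was −0.29 (edgeR adjusted p = 0.000407).

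OSR1 (chromosome 2, 19351485 to 19358623, minus strand), an odd-skipped zinc finger factor of embryonic mesenchyme, moved least clearly. Its levels were 269.6, 306 and 286 CPM in siNC, 330.4, 298 and 311 CPM in siERRα and 335, 311 and 323 CPM with imatinib. The imatinib libraries lay above the controls, the lowest of them only just. OSR1 rose 1.12-fold with imatinib (log2 fold change 0.17, SE 0.0590, edgeR adjusted p = 0.0268). That call was lost without S1 (adjusted p = 0.161), S3 (0.0845), S16 (0.102) or S18 (0.0727), and under the GC correction (log2 fold change 0.094, adjusted p = 0.0629). After knockdown the log2 fold change was 0.12 (95% interval 0.0008 to 0.25, edgeR adjusted p = 0.141), and it passed under the GC correction (adjusted p = 0.0389). OSR1 was the 1 gene of the 10 with no call between siERRα and imatinib, at −0.045 (95% interval −0.17 to 0.078, edgeR adjusted p = 0.544).

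Levels can be set against each other between genes only per length, and were therefore divided by the kilobases of exon of each gene (RPKM). In siNC, CD34 led with 139.8 ± 2.94 RPKM, followed by KIT with 115 ± 2.57 and HAND1 with 108 ± 8.12, whose libraries overlapped. FOXF1 had 92.2 ± 3.15 RPKM, ANO1 61.2 ± 1.38 and OSR1 54.4 ± 3.42. HIC1 (26.2 ± 3.21 RPKM) and ETV1 (25.8 ± 0.708) overlapped, and PDGFRA (13.7 ± 0.594) and PRKCQ (3.81 ± 0.0484) closed the order. Among 19920 protein-coding genes CD34 ranked at 224, KIT at 294 and PRKCQ at 6914 in siNC. PDGFRA, the receptor that shares its inhibitor with KIT, ranked at 3208.

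The order was the same in siERRα, where KIT overlapped HAND1, HAND1 overlapped FOXF1 and HIC1 overlapped ETV1. It changed with imatinib. HAND1 (146 ± 3.24 RPKM) and KIT (135 ± 8.19), which overlapped, then stood above CD34 (108 ± 5.60). ANO1 (93.4 ± 5.67 RPKM) passed FOXF1 (83.1 ± 3.06), and ETV1 (37.8 ± 3.25) passed HIC1 (22.4 ± 2.25). The places depend on the length used. With the longest transcript in place of all exons, KIT came to 238 RPKM in siNC, above CD34 at 162, and ETV1 to 38.3, above HIC1 at 31.7. By that length KIT did not pass CD34 with imatinib, nor ETV1 HIC1, since both stood above them in siNC already. With imatinib KIT then came to 278 RPKM, above HAND1 at 146. HAND1 still passed CD34 (125 RPKM), and ANO1 (120) still passed FOXF1 (83.1).

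**Figure D3:**
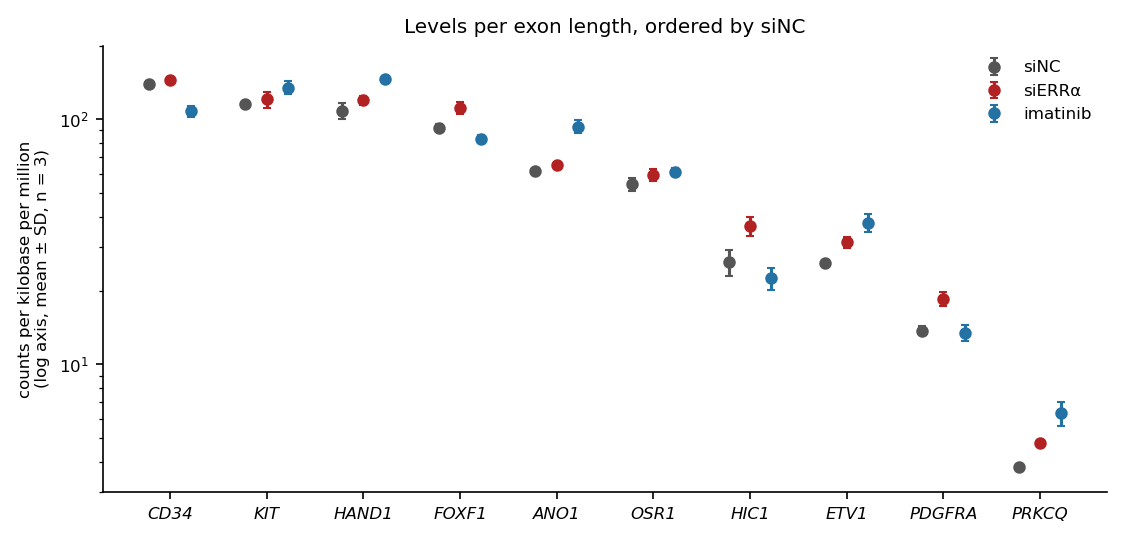
Level of each identity gene in RPKM, scaled to exon length and library size (log axis), as mean ± SD over 3 libraries of siNC, siERRα and imatinib, ordered by siNC. The genes span from 140 RPKM for CD34 to 3.81 RPKM for PRKCQ in siNC.

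The ligands, adaptors and kinases around KIT and PDGFRA were taken from a list of 28 genes, all of them tested. After knockdown 1 rose and 6 fell (23.9% of all genes passed), with a median log2 fold change of −0.072. With imatinib 7 rose and 10 fell (41.7% of all genes passed), with a median of −0.026. KITLG, which encodes the ligand of KIT, went from 85.98 ± 4.56 CPM in siNC (SD, n = 3) to 50.3 ± 1.61 CPM with imatinib, a fall of the ligand where the receptor rose (log2 fold change −0.77, edgeR adjusted p = 3.74e-08). It stood at 82.3 ± 6.99 CPM in siERRα (log2 fold change −0.063, 95% interval −0.20 to 0.077, adjusted p = 0.552). PDGFB, a ligand of the PDGF receptors, fell from 5.49 ± 0.420 to 3.43 ± 0.148 CPM after knockdown, where PDGFRA rose (log2 fold change −0.68, edgeR adjusted p = 0.000368).

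With imatinib PDGFB stood at 4.13 ± 0.470 CPM (log2 fold change −0.41, edgeR adjusted p = 0.01), and this call was lost without S1 (adjusted p = 0.0571) or S17 (0.0592). STAT5B, a transcription factor activated by KIT, fell after knockdown (log2 fold change −0.32, edgeR adjusted p = 0.00275) and rose with imatinib (0.26, adjusted p = 0.00561). GRB10, an adaptor that binds receptor kinases, fell after knockdown (log2 fold change −0.35, edgeR adjusted p = 0.000496). With imatinib the docking protein GAB1 rose by 0.47 and the SRC family kinase YES1 fell by 0.51 on the log2 scale (edgeR adjusted p = 9.53e-06 and 3.37e-05).

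The nearest family members of the identity genes did not all move with them. Of 16 relatives 13 were tested, of which 4 rose and 2 fell after knockdown and 5 rose and 3 fell with imatinib (23.9% and 41.7% of all genes passed), with medians of −0.076 and −0.042. ETV4 and ETV5 are the closest relatives of ETV1, in the PEA3 group of ETS factors, and are known targets of MAP kinase signalling. ETV5 stood at 355 ± 5.29 CPM in siNC, 436 ± 8.44 CPM in siERRα and 231 ± 13.2 CPM with imatinib. It rose with ETV1 after knockdown (log2 fold change 0.30, edgeR adjusted p = 0.000384) and fell with imatinib (−0.62, adjusted p = 2.96e-08), where ETV1 rose. ETV4 fell with imatinib as well, from 85.4 ± 6.29 CPM in siNC to 37.04 ± 4.57 CPM with imatinib (log2 fold change −1.20, edgeR adjusted p = 1.8e-09).

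In siERRα, ETV4 stood at 104 ± 7.54 CPM (log2 fold change 0.28, edgeR adjusted p = 0.0141), a call lost without S1 (adjusted p = 0.0659), S3 (0.0906), S4 (0.0655) or S6 (0.0762). HIC2, the relative of HIC1, had the largest change of the family genes after knockdown, from 4.81 ± 0.291 to 12.9 ± 0.933 CPM (2.68-fold, log2 fold change 1.42, SE 0.0977, edgeR adjusted p = 4.89e-09). Its level with imatinib was 4.66 ± 0.187 CPM (log2 fold change −0.048, 95% interval −0.27 to 0.18, adjusted p = 0.755). OSR2 rose under both treatments, by 0.36 after knockdown (edgeR adjusted p = 0.00962, lost without S1 at 0.0699 or S3 at 0.0626) and by 0.72 with imatinib (adjusted p = 8.36e-06).

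ANO6, a phospholipid scramblase of the ANO1 family, fell after knockdown (log2 fold change −0.30, edgeR adjusted p = 0.000739) and rose with imatinib (0.36, adjusted p = 4.61e-05). ANO5 had no counts in any library.

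**Figure D4:**
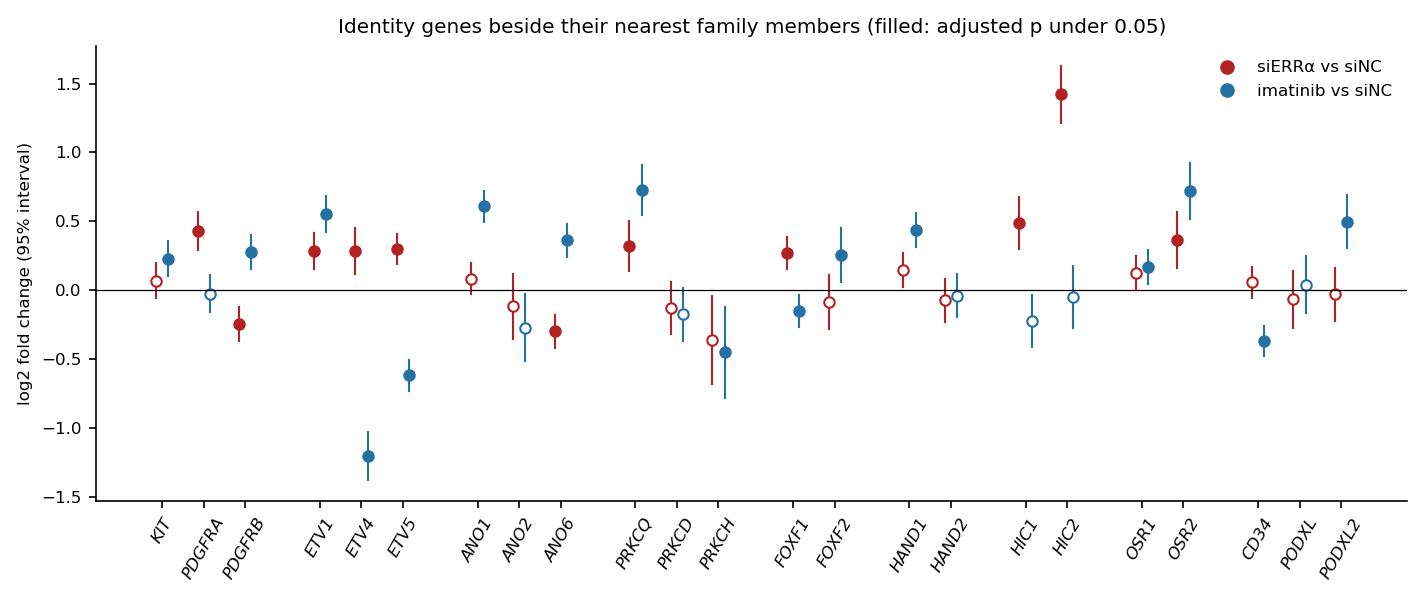
log2 fold change against siNC with its 95% interval for each identity gene and the tested members of its family, for siERRα and imatinib (filled points pass an adjusted p under 0.05). With imatinib ETV1 lies above 0 and ETV4 and ETV5 below it, and HIC2 stands highest after knockdown.

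Genes that govern the turnover of the ETV1 protein or repress the PEA3 genes were taken from a list of 9, all tested. After knockdown 5 rose and 2 fell, with a median of 0.19, and with imatinib 1 rose and 2 fell, with a median of −0.025 (23.9% and 41.7% of all genes passed). TRIB1 and TRIB2 encode pseudokinases that bring substrates to the ubiquitin ligase COP1. TRIB1 stood at 46.8 ± 0.712 CPM in siNC, 70.2 ± 2.68 CPM in siERRα and 15.9 ± 0.191 CPM with imatinib. It rose after knockdown (log2 fold change 0.58, edgeR adjusted p = 8.03e-07) and fell with imatinib to 0.339 of the control level (−1.56, adjusted p = 2.01e-12). TRIB2 fell with imatinib as well (log2 fold change −0.66, edgeR adjusted p = 1.34e-08).

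After knockdown TRIB2 rose by 0.19 (edgeR adjusted p = 0.0149), a call lost without S1 (0.0512), S3 (0.0766) or S6 (0.0656). ATXN1L, the partner of the PEA3 repressor CIC, rose after knockdown (log2 fold change 0.28, edgeR adjusted p = 0.000393), and CUL4B, a scaffold of ubiquitin ligases, fell (−0.30, adjusted p = 0.00336). CIC passed narrowly in both comparisons, with 0.26 after knockdown and 0.26 with imatinib (edgeR adjusted p = 0.0408 and 0.0285). The knockdown call of CIC was lost without any 1 of S1, S2, S3, S4, S6 or S18 (adjusted p from 0.0691 to 0.193), and the imatinib call without any 1 of S1, S2, S3, S16 or S18 (0.0526 to 0.225) or under the GC correction (0.443).

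Other genes of GIST, Cajal cells and gut mesenchyme came from a list of 20, of which 18 were tested. After knockdown 3 rose and none fell, with a median of 0.0022, and with imatinib 8 rose and 2 fell, with a median of 0.18 (23.9% and 41.7% of all genes passed). PLAT, tissue plasminogen activator, stood at 4741 ± 148 CPM in siNC, 5416 ± 153 CPM in siERRα and 6396 ± 92.1 CPM with imatinib. It rose with imatinib (log2 fold change 0.43, edgeR adjusted p = 1.2e-06). After knockdown it rose by 0.19 (adjusted p = 0.00788), a call lost without S3 (0.0694) or S6 (0.0553).

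CACNA1H, a T-type calcium channel of Cajal cells, rose by 0.89 with imatinib (edgeR adjusted p = 2.87e-08). After knockdown it rose by 0.29 (adjusted p = 0.00854), lost without S1 (0.06) or S4 (0.0554). PTCH1, the Hedgehog receptor and a target of that pathway, rose after knockdown (log2 fold change 0.51, edgeR adjusted p = 4.42e-06), whereas with imatinib its value was 0.12 (95% interval −0.0064 to 0.25, adjusted p = 0.121). LRIG1, an inhibitor of receptor tyrosine kinases, rose with imatinib by 0.48 (adjusted p = 2.16e-06) and gave 0.041 after knockdown (95% interval −0.081 to 0.16, adjusted p = 0.672).

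Of 8 transcripts that lie beside the identity genes or share bases with them, 5 were tested, and ANO1-AS1 and GSX2 had no counts in any library. After knockdown 1 rose and 1 fell, and with imatinib 3 rose and 1 fell (23.9% and 41.7% of all genes passed). CHIC2, which lies near PDGFRA, fell after knockdown, where PDGFRA rose (log2 fold change −0.68, edgeR adjusted p = 5.93e-06), and fell with imatinib (−0.44, adjusted p = 0.000261). FENDRR, the long noncoding RNA transcribed away from FOXF1, stood at 343 ± 8.28 CPM in siNC, 389 ± 10.4 CPM in siERRα and 321 ± 7.05 CPM with imatinib. It rose with FOXF1 after knockdown (log2 fold change 0.18, edgeR adjusted p = 0.0111), a call lost without S1 (0.0706), and with imatinib its value was −0.096 (adjusted p = 0.138).

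SMG6, a nuclease of RNA decay that overlaps HIC1, rose with imatinib (log2 fold change 0.40, edgeR adjusted p = 0.000212), where the value of HIC1 was −0.22. After knockdown, where HIC1 rose, SMG6 gave 0.089 (adjusted p = 0.431). PRKCQ-AS1 rose with imatinib by 0.25 (edgeR adjusted p = 0.0285), a call lost without S1, S3, S17 or S18 (adjusted p from 0.0547 to 0.11). LNX1 rose by 0.45 with imatinib (adjusted p = 0.0331), lost without S1, S2, S3, S16 or S17 (0.0502 to 0.124). The number of these transcripts that passed with imatinib went from 4 to 2 without S1, S3 or S17, and after knockdown from 2 to 1 without S1. Over all genes 5874, 5794 and 6583 passed with imatinib in these fits, and 3031 after knockdown without S1.

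Within the groups some identity genes were high and low in the same libraries. In siERRα, S5 was the highest library for KIT, PDGFRA, ETV1, ANO1 and PRKCQ and the lowest for FOXF1, HAND1, HIC1, OSR1 and CD34. With imatinib, S17 was the highest for KIT, PDGFRA, ETV1 and PRKCQ and the lowest for FOXF1, HIC1, OSR1 and CD34. In siNC, S2 was the highest for FOXF1, HAND1, HIC1 and OSR1 and the lowest for KIT and PDGFRA, and S3 was the highest for the other 6. The GC content of the transcripts ran from 37.1% for ETV1 to 52.9% for ANO1 among the genes from KIT to PRKCQ and from 46.5% for CD34 to 63.5% for HIC1 among the others, beside a median of 47.7% over all genes tested. Its part in this spread was not tested. The libraries of a group also differed over all genes with enough counts. The chi-square per degree of freedom in siERRα was 16.5 (S4, S5), 14.0 (S5, S6) and 4.35 (S4, S6). With imatinib it was 14.7 (S16, S17), 11.1 (S16, S18) and 7.96 (S17, S18), and in siNC 9.67 (S1, S2), 6.87 (S2, S3) and 3.77 (S1, S3). The share of all tested genes that were highest or lowest in these libraries was not taken.

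The SD among siNC libraries ran from 1.27% of the mean for PRKCQ to 12.2% for HIC1, and with imatinib from 2.22% for HAND1 to 11.6% for PRKCQ. PRKCQ had only 553, 490 and 639 counts in S1, S2 and S3, where counting error alone is larger than such an SD. Its small SD in siNC is thus no measure of how well it repeats. The number of identity genes called was also taken without S5, S17 or S2. Without S5 it was 6 after knockdown, where 4401 of all 17369 genes tested passed. Without S17 it was 7 with imatinib, where 6583 of 17469 passed. Without S2 it was 6 after knockdown and 7 with imatinib, where 3514 and 6654 of 17434 passed.

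**Figure D5:**
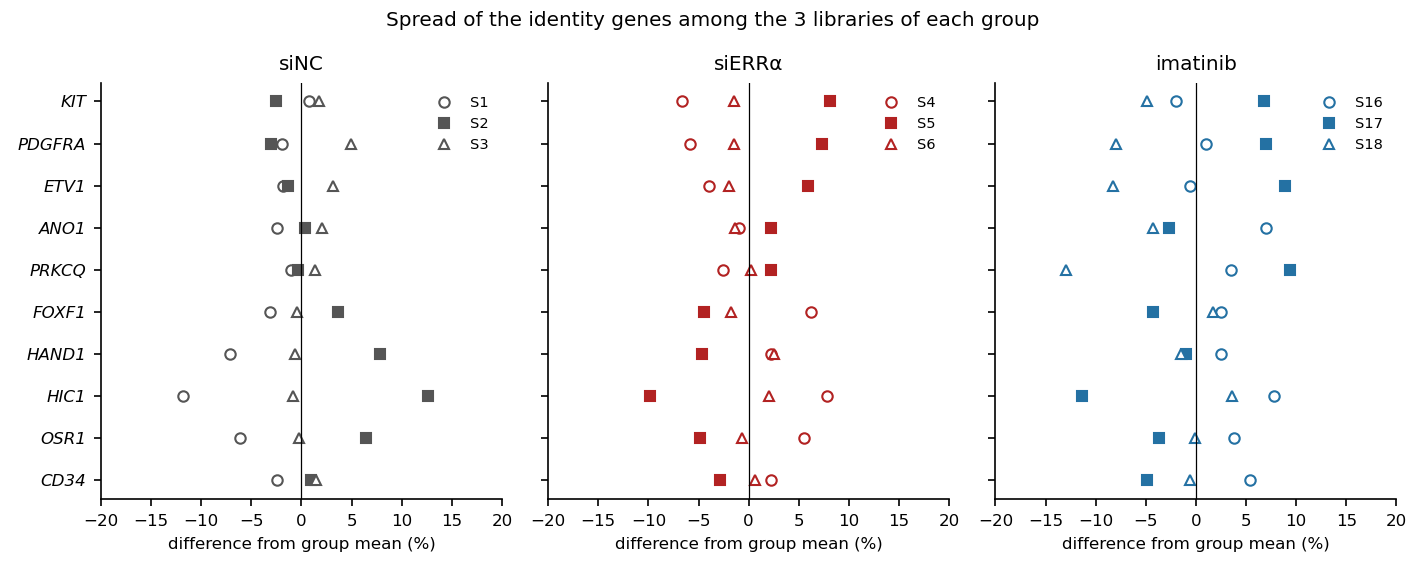
Difference of each library from its group mean, in percent of the mean, for the 10 identity genes in siNC, siERRα and imatinib (3 libraries each). In siERRα, S5 lies right of 0 for the 5 genes from KIT to PRKCQ and left of 0 for the 5 from FOXF1 to CD34. The share of all tested genes for which S5 is the highest or lowest library was not taken.

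The genes whose profile over the 9 libraries came closest to each identity gene were found by the root mean square difference of centred log2 CPM, among 11610 protein-coding genes with at least 1 CPM on average. This measure is a description over libraries that share their groups, depth and composition. TBC1D12, GNPAT and CENPI came closest to KIT, with differences of 0.0335 to 0.0366 beside KIT's own root mean square of 0.116. TMEM135, KBTBD6 and MFAP3 came closest to PDGFRA (0.0463 to 0.0567, own 0.222), and PPM1L, GM2A and FBXO21 to ETV1 (0.0365 to 0.0629, own 0.234). For ANO1 they were DAG1, GANAB and PDIA4 (0.0394 to 0.0448, own 0.273). GDNF, GM2A and ETV1 were closest to PRKCQ (0.0777 to 0.0838, own 0.306), so that an identity gene was itself among them.

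FOXF1 had ENTR1, CLPTM1 and TTC39C as its closest genes (0.0284 to 0.0360, own 0.181), and HIC1 had MKNK2, VPS37C and PAK4 (0.0575 to 0.0739, own 0.323). PIGS, CD151 and PLAT came closest to HAND1 (0.0352 to 0.0434, own 0.191), and PLAT, named above for its rise, is one of them. The closest to OSR1 were ACP2, GTPBP1 and MADD (0.0316 to 0.0343, own 0.0946). For CD34 they were SHROOM3, NXF1 and PFKFB3 (0.0318 to 0.0364, own 0.195).

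The label of the genes was checked against markers of other cells in which some of them are known. All 10 identity genes were above 1 CPM in every group, and their sum was 4272 to 4435 CPM in siNC, 4786 to 4852 CPM in siERRα and 4524 to 4768 CPM with imatinib. Mast cells also carry KIT, but of 6 mast cell markers none reached 1 CPM in any group, and TPSB2, CPA3, HDC and CMA1 were at 0 in all libraries. Endothelium also carries CD34, and its 5 markers summed to 1.77 to 2.12 CPM in siNC, 1.68 to 2.03 CPM in siERRα and 2.10 to 3.36 CPM with imatinib. The 5 leukocyte markers summed to at most 1.08 CPM, none of which reached 1 CPM. The Schwann cell factor SOX10 was at 0 in all libraries. Of 8 smooth muscle markers 5 reached 1 CPM in siNC, 5 in siERRα and 6 with imatinib. The 8 summed to 679.7 to 732, 535 to 573 and 773 to 813 CPM. Most of the sum was ACTA2, at 396 ± 16.7, 263 ± 13.9 and 467 ± 9.87 CPM, while SMTN, at 185 ± 12.4, 215 ± 11.5 and 133 ± 15.3 CPM, had another order. MYOCD stood at 0.559 ± 0.0877, 0.477 ± 0.148 and 7.71 ± 1.59 CPM. TAGLN, ACTG2 and CNN1 also reached 1 CPM in every group, while DES and MYH11 stayed under 1 CPM. TAGLN (109 ± 3.55, 70.4 ± 3.75 and 148 ± 12.8 CPM) and ACTG2 (11.4 ± 0.724, 7.21 ± 0.872 and 28.3 ± 2.00 CPM) had the order of ACTA2. CNN1 was lowest in siERRα as well and highest in siNC (1.98 ± 0.280, 1.01 ± 0.241 and 1.79 ± 0.0475 CPM).

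The 4 markers of PDGFRA-positive fibroblast-like cells, the other PDGFRA-bearing cells of the gut wall, all reached 1 CPM. They summed to 465 to 480.2 CPM in siNC, 409 to 453 CPM in siERRα and 734 to 818 CPM with imatinib. Most of that sum was DCN, at 354 ± 4.42, 322 ± 19.4 and 617 ± 41.05 CPM. ADAMTSL3 had the same order (114 ± 4.43, 97.4 ± 4.97 and 151 ± 5.96 CPM), and the members at lower levels had others. KCNN3 had its highest mean in siERRα and its lowest with imatinib (3.23 ± 0.458, 3.82 ± 0.251 and 2.33 ± 0.669 CPM), and P2RY1 its highest in siNC (3.04 ± 0.292, 1.93 ± 0.225 and 1.75 ± 0.412 CPM). The choice to give the members one by one was made after their values were seen. Of 5 epithelial markers 2 reached 1 CPM, KRT8 and KRT18, and the 5 had sums of 302 to 315, 279.6 to 303 and 193 to 223 CPM. Most of that sum was KRT18, at 296 ± 6.26, 280 ± 12.4 and 196 ± 14.4 CPM. Of the 3 epithelial markers tested, 2 fell and 1 rose with imatinib (41.7% of all genes passed). The one that rose was CDH1, at 0.353 ± 0.0737, 0.232 ± 0.0901 and 0.831 ± 0.176 CPM (log2 fold change 1.24, edgeR adjusted p = 0.00526). The part of these marker differences in the changes of the identity genes was not tested.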

How the data were processed

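RNA was sequenced from T1 cells in 9 libraries, 3 per group, and libraries were assigned by the labels of the deposit. Per the submitters' processing notes, the authors used STAR 2.7.3a for alignment (build GRCh38) and featureCounts 2.0.1 for counting. The deposited values are raw counts per gene symbol with no normalization. The metadata table was not used for values. For the counting, neither annotation release nor strand setting is given in the sources used here.

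Counts were filtered (filterByExpr, minimum count 10, minimum total 15), normalized by TMM and tested in edgeR 4.0.16 (R 4.3.3) by its robust quasi-likelihood F-test. The 9 libraries shared 1 fit, with Benjamini-Hochberg adjustment over all genes tested, and a call was made at an adjusted p under 0.05. Standard errors and 95% intervals follow from each fold change and its F value. The fit was first tested on simulated data. Exon positions and lengths were taken from GENCODE release 44 by symbol, promoter windows from RefSeq. Totals of 37527236 to 49363002 counts leave little counting error for the identity genes other than PRKCQ, which had 490 to 841 counts per library. Alternatives were DESeq2 size factors, the Wald test of DESeq2 1.42.0, limma-voom 3.58.1, other filters, a fit of only the 6 libraries compared, a replicate block, thinned counts and leaving out each library, and a GC correction chosen after seeing the data.

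The members and lists were chosen with earlier results of these data known. Of each list, the 3 genes with the smallest p in each of the comparisons with siNC are named, and those with no counts, and for each identity gene the 3 nearest profiles. The level of a single marker gene, and the list sum that rests on it, are not reported here.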

Additional observations from a re-analysis of the deposited data

How the results depend on the processing

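Over 67 results for single genes, 8 other ways of processing the data turned no direction, and moved a call 11 times. FOXF1 with imatinib lost its call with no filter (adjusted p = 0.0505), and HIC1 with imatinib gained one with the size factors of DESeq2 (0.0497), the DESeq2 Wald test (0.0341), no filter (0.00187) or the 6 libraries compared (0.0473). The other moves were losses by LNX1 and PRKCQ-AS1 with imatinib, CIC after knockdown, and FOXF1 under the replicate block given below. Leaving out a library moved a call 52 times and turned a direction only for PDGFRA with imatinib, whose log2 fold change then ran from −0.077 to 0.028. The GC correction moved 5 calls and turned PDGFRA with imatinib (0.0023) and OSR1 between siERRα and imatinib (0.017). Under it 7 identity genes were called after knockdown, 8 with imatinib and 9 between the treatments, where 5460, 7881 and 9646 of all 16976 genes passed. Without it these all-gene calls were 4064, 7072 and 8865. The number of identity genes called ran, over the left-out libraries, from 5 to 6 after knockdown, 6 to 9 with imatinib and 8 to 9 between the treatments. Over all genes tested the calls in these fits ran from 2910 to 4401, 5794 to 7780 and 8203 to 8934. Of the transcripts beside the identity genes, the number called with imatinib was 2 with no filter and 2 to 4 over the left-out libraries, and 1 to 2 after knockdown. With the longest transcript as length, levels in siNC came to 162 RPKM for CD34, 238 for KIT, 78.7 for ANO1, 68.8 for OSR1, 31.7 for HIC1, 38.3 for ETV1 and 20.5 for PDGFRA.

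Deviations from the group means correlated at −0.0996 to 0.147 between same-numbered libraries and at −0.133 to 0.0926 between others. The highest values, S5 with S17 (0.147) and S4 with S16 (0.0950), were both of same-numbered libraries. With 3 libraries per group, these correlations cannot settle whether the column numbers pair the libraries. With the number as a replicate block, FOXF1 with imatinib lost its call (adjusted p = 0.0556), leaving 7 identity genes called with imatinib, and the block moved the calls over all genes to 3652 after knockdown, 6764 with imatinib and 8612 between the treatments.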
